A study of Mus musculus with 4 samples.

Results

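Wfdc17 and Wfdc21 are mouse genes for small secreted proteins that carry a WAP domain, a fold named after whey acidic protein. They are 2 of the 33696 genes in the expression tables of 4 single-cell RNA libraries from mouse bone marrow, found there as ENSMUSG00000069792 (Wfdc17) and ENSMUSG00000051748 (Wfdc21). Both were chosen by measured values of these libraries: Wfdc17 by its level in neutrophils and Wfdc21 by its level in monocytes, each with and without butyrate. The differences between the libraries are therefore given as descriptions, with no test.

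The WAP fold is held together by disulfide bonds between cysteines and is shared with Slpi, the secretory leukocyte protease inhibitor, which blocks neutrophil elastase and cathepsin G. Neutrophils store such proteases in primary granules made early in their development, fill secondary granules with lactoferrin (Ltf), cathelicidin (Camp) and neutrophilic granule protein (Ngp) later, and then mature into Retnlg-expressing cells. WAP antiproteases limit the damage that released proteases do to tissue. In the mouse, Wfdc17 has been described as a product of activated macrophages and microglia that dampens their inflammatory response, and Wfdc21 is the protein-coding mouse counterpart of the human dendritic cell transcript lnc-DC. Butyrate, which gut bacteria release when they ferment fibre, inhibits histone deacetylases, and Tet2 encodes an enzyme that oxidises methylated cytosine and is often mutated in clonal haematopoiesis.

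The libraries hold live CD45.2+ Tet2+/- bone marrow cells from lethally irradiated mice that had received them in equal parts with CD45.1+ Tet2+/+ competitor marrow. B12+Butyrate mice were injected with vitamin B12 (0.29 µg) and drank 100 mM sodium butyrate, and Butyrate mice were injected with PBS and drank 100 mM sodium butyrate. B12 mice were injected with the same dose of B12 and drank 100 mM NaCl, and Control mice were injected with PBS and drank 100 mM NaCl. Injections were given 2 times a week for 7 months, starting 1 month after transplantation. Every group, Control included, carries the heterozygous Tet2 deletion in the sorted cells, so no library shows wild-type blood cells. Each group is 1 library of viably frozen cells from 3 pooled mice, in which cKit+ and cKit- cells were mixed in equal parts. The shares of cell classes are thus set in part by that mix, and no spread between mice can be had. The intervals given are 95% exact Poisson intervals for levels and exact binomial (Clopper-Pearson) intervals for shares, and they cover counting error only.

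The tables held 34670 cell barcodes and 449267997 UMIs (unique molecular identifiers, each standing for 1 captured transcript), between 95892397 and 123435815 UMIs a library. Limits of 500 or more genes, 1000 or more UMIs and no more than 10% mitochondrial UMIs left 31209 of these barcodes. The cells kept numbered 7616 in B12+Butyrate, 6793 in Butyrate, 8048 in B12 and 8752 in Control, with median depths between 11583.5 and 12544.5 UMIs. Cells were put into 10 classes by limits on summed marker UMIs. Some overlaps were settled by fixed rules, so that a cell past both the conventional dendritic cell and the monocyte limits was not counted as a monocyte. The 914 cells (2.93%) that still met the limits of several classes and the 946 (3.03%) that met none were left out of the classes. The 12 neutrophil markers summed to 328355 to 349862 counts per 1000000 UMIs (CPM) in neutrophils and the 12 monocyte markers to 7723 to 8053 CPM in monocytes, with none at 0 in any library. Tet2 itself was counted at 53.5 to 60.6 CPM in neutrophils, and since all groups are heterozygous it does not check their labels. Any 2 libraries shared between 8 and 23 of their barcodes.

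Both genes lie on the forward strand of chromosome 11, and their coding sequences are shown because related genes are told apart in the libraries by sequence alone. In the GRCm38 assembly with the GENCODE M21 annotation, Wfdc17 spans chr11:83703991-83706268 in 3 exons, of which the first 2 hold the coding part and the last is wholly 3′ UTR. Wfdc21 spans chr11:83746940-83752642, also with 3 exons and a coding part in 2 of them. That build differs from GRCm39, against which the libraries were counted, and no coordinate was used with the counts. The coding sequences run 5′ to 3′ from start to stop codon, with the in-frame cysteine codons in capitals.
Wfdc17: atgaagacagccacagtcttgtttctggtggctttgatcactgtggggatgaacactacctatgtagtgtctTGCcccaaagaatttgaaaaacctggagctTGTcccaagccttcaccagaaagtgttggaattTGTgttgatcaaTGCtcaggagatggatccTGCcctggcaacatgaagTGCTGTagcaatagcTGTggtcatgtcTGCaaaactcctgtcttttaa
Wfdc21: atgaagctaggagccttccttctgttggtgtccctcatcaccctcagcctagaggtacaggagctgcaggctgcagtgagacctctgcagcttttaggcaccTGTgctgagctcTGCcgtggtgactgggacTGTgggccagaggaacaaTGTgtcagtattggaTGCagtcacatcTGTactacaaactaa

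Wfdc17 has 9 cysteine codons among 76 codons and Wfdc21 has 6 among 63. In both, the cysteine codons follow a start without any. The coding sequences were identical at 54.2% of aligned positions, and the longest run shared by the transcripts was 9 bases. The nearer relative is Wfdc18, first known from mouse mammary gland, which lies between them. Wfdc18 starts 2746 bases after the end of Wfdc17 and ends 35591 bases before Wfdc21, and its coding sequence was identical to that of Wfdc17 at 79.5% of positions, with a longest shared run of 30 bases. Wfdc18 itself was counted at 0.119 to 0.422 CPM in neutrophils and 5.26 to 8.82 CPM in monocytes, so reads assigned to it were few beside those of Wfdc17.

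Monocytes and conventional dendritic cells carried Wfdc17 in all 4 libraries, and among neutrophils it was mainly a transcript of the mature stage. Wfdc17 stood at 476 CPM in B12+Butyrate monocytes, 463 CPM in Butyrate monocytes, 690 CPM in B12 monocytes and 729 CPM in Control monocytes, and 79.1% to 87.9% of these cells had at least 1 Wfdc17 UMI. In conventional dendritic cells the levels were 375 CPM in B12+Butyrate, 407 CPM in Butyrate, 856 CPM in B12 and 611 CPM in Control. That class can include cells that also passed the monocyte limits, and such cells were not counted apart. The ranges of both classes overlap over the 4 libraries, so their order is not fixed. A step lower came cells gated as stem and multipotent progenitors (53.7 to 105 CPM), neutrophils as a whole (18.7 to 96.1 CPM) and B cells (27.0 to 52.9 CPM), whose ranges also overlap.

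T cells, basophils, NK cells and plasmacytoid dendritic cells held few Wfdc17 UMIs or none. T cells had 1 Wfdc17 UMI in B12+Butyrate, 1 in Butyrate, 4 in B12 and 1 in Control, or 0.531 to 5.61 CPM. No basophil held a Wfdc17 UMI among 16, 20, 24 and 34 cells in B12+Butyrate, Butyrate, B12 and Control. By the exact binomial interval this still allows shares of up to 20.6%, 16.8%, 14.2% and 10.3% of cells with a UMI. Plasmacytoid dendritic cells ranged from 0 to 15.2 CPM over 31 to 100 cells. NK cells ranged from 0 to 26.1 CPM over 31 to 47 cells. No order between these small classes is read.

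Wfdc21 had the opposite distribution: it was a neutrophil transcript, with a lower level in granulocyte-monocyte progenitors and a small one in monocytes. Neutrophils held 4924 CPM in B12+Butyrate, 4958 CPM in Butyrate, 4667 CPM in B12 and 4739 CPM in Control, and 98.8% to 99.1% of them had a Wfdc21 UMI. Granulocyte-monocyte progenitors, gated on primary granule genes, held 489 CPM in B12+Butyrate, 564 CPM in Butyrate, 473 CPM in B12 and 553 CPM in Control. The ranges of these classes do not overlap each other or any other class. Cells that should lack Wfdc21 still held a low level, 10.1 to 19.1 CPM in T cells and 11.7 to 22.2 CPM in B cells. Conventional dendritic cells (4.82 to 14.4 CPM), plasmacytoid dendritic cells (4.27 to 19.7 CPM), NK cells (0 to 22.4 CPM) and basophils (0 to 7.00 CPM) lay within, near or below that range, and their Wfdc21 is read as background. Stem and multipotent progenitors held 4.13 CPM in B12+Butyrate, 5.94 CPM in Butyrate, 18.7 CPM in B12 and 21.3 CPM in Control, from 7, 22, 49 and 49 UMIs. The level was above that of B cells in B12 (16.1 CPM in B cells) and below it in the other libraries. The log2 ratios of these progenitors were -0.97 for Butyrate over Control and -1.02 for B12+Butyrate over B12.

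**Figure D1:**
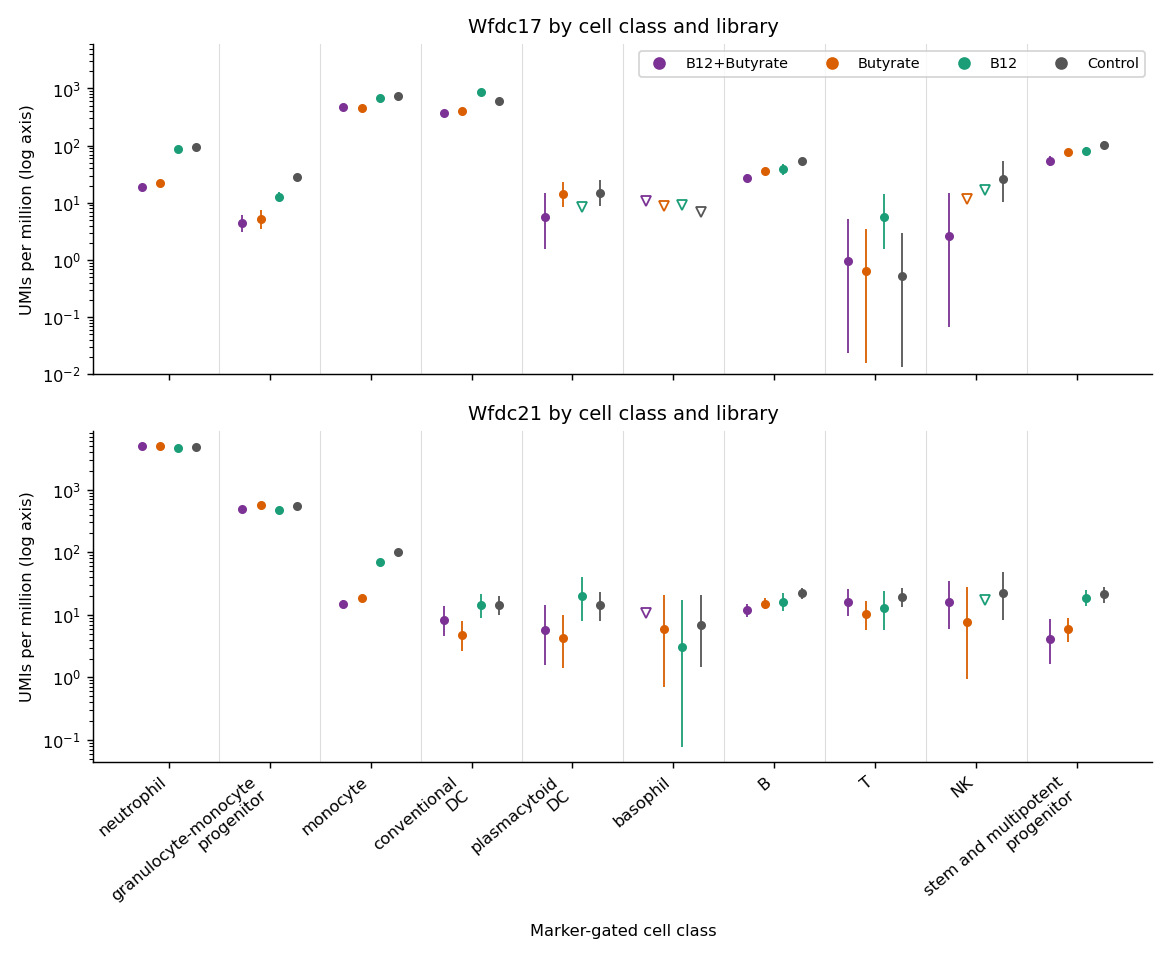
Wfdc17 (upper panel) and Wfdc21 (lower panel) in CPM on a log axis, by marker-gated cell class, with 1 point a library, bars for the 95% Poisson interval and open triangles at the level of 3 UMIs where none was counted. Wfdc17 peaks in monocytes and conventional dendritic cells, Wfdc21 peaks in neutrophils at 4667 to 4958 CPM, and Wfdc21 in monocytes splits into 15.0 and 18.6 CPM in the butyrate libraries against 69.8 and 102 CPM in the others.

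Along neutrophil development the genes occupied different stages. Neutrophils were split by marker limits into primary granule, cycling, secondary granule, intermediate and mature stages, the last being cells with Retnlg and little Camp. Wfdc21 stood at 2219 to 2433 CPM in the primary granule stage, 4565 to 4764 CPM in the cycling stage, 6441 to 6712 CPM in the secondary granule stage, 6148 to 6718 CPM in the intermediate stage and 2482 to 3124 CPM in the mature stage. In every library it was thus highest in the Camp-bearing secondary granule and intermediate stages. Wfdc17 was low up to the secondary granule stage in the butyrate libraries, with 0.266 to 6.13 CPM against 0.949 and 0.633 CPM in T cells of B12+Butyrate and Butyrate, and reached 5.43 to 33.3 CPM over the same stages in B12 and Control. The intermediate stage held 13.4 CPM in B12+Butyrate, 5.49 CPM in Butyrate, 36.7 CPM in B12 and 40.5 CPM in Control.

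In the mature stage Wfdc17 reached 426 CPM (400 to 452) in B12+Butyrate, 622 CPM (578 to 668) in Butyrate, 1710 CPM (1662 to 1759) in B12 and 1559 CPM (1512 to 1606) in Control. Both butyrate libraries lie below both others. The mature stage made up 12.6% of B12+Butyrate neutrophils, 9.67% of Butyrate neutrophils, 14.0% of B12 neutrophils and 15.4% of Control neutrophils, and held 1027, 750, 4781 and 4202 of the 1255, 1024, 5903 and 5615 Wfdc17 UMIs of all neutrophils in the same libraries. A small remainder of neutrophils, with neither Camp nor Retnlg above the limits, had the highest Wfdc17 levels of all, 1694 CPM in B12+Butyrate, 1301 CPM in Butyrate, 3205 CPM in B12 and 4150 CPM in Control, but numbered only 9, 11, 28 and 27 cells there. The 12 monocyte markers summed in this remainder to 127, 221, 220 and 290 CPM in these libraries, above the mature stage of each. Of the 12, 9, 9, 7 and 8 were at 0.

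**Figure D2:**
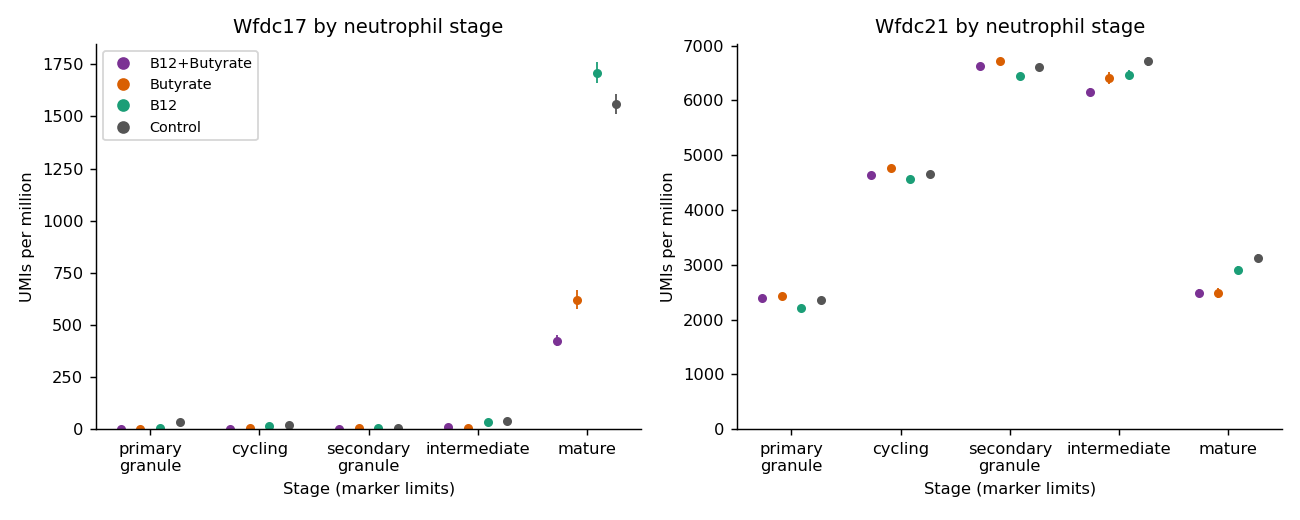
Wfdc17 (left) and Wfdc21 (right) in CPM by neutrophil stage, with 1 point a library and bars for the 95% Poisson interval. Wfdc17 is at 40.5 CPM or less before the mature stage, where the butyrate libraries stand at 426 and 622 CPM against 1710 and 1559 CPM, while Wfdc21 peaks in the secondary granule and intermediate stages at 6148 to 6718 CPM.

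Neutrophils from butyrate-treated mice carried less Wfdc17 than those from mice without butyrate, with and without B12. Over all neutrophils Wfdc17 stood at 18.7 CPM (17.7 to 19.7) in B12+Butyrate, 22.6 CPM (21.2 to 24) in Butyrate, 85.9 CPM (83.7 to 88.1) in B12 and 96.1 CPM (93.6 to 98.6) in Control. The butyrate libraries do not overlap the others. On the scale of log2(CPM + 10), which understates the change of low genes, the ratio was -1.70 (-1.77 to -1.63) for Butyrate over Control and -1.74 (-1.80 to -1.68) for B12+Butyrate over B12. In plain CPM the Butyrate library was lower than Control by 4.25-fold and the B12+Butyrate library was lower than B12 by 4.6-fold. These comparisons share no library, and in both Wfdc17 had the lowest ratio of all genes at 10 CPM or more in either library (7043 and 6895 genes). At least 2-fold lower on that log2 scale in neutrophils were 0.0568% of genes for Butyrate over Control and 0.0725% for B12+Butyrate over B12. Of 6847 genes measured in both comparisons, Wfdc17 and Ifitm1, an interferon-induced membrane protein, were at least 2-fold lower in both (0.0292%). Because this contrast chose Wfdc17, nothing is read from its rank.

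The neutrophil difference was there within the mature stage. Wfdc17 was lower there by 2.51-fold (2.32 to 2.71) in Butyrate than in Control and by 4.02-fold (3.76 to 4.30) in B12+Butyrate than in B12, or -1.31 and -1.98 on the log2 scale. Among genes measured in that stage, 0.211% were at least 2-fold lower for Butyrate over Control and 0.36% for B12+Butyrate over B12. With neutrophils of every library weighted to the same makeup of stages, the log2 ratio over all neutrophils was -1.20 for Butyrate over Control and -1.58 for B12+Butyrate over B12. Retnlg, the maturation marker that sets the stage limit, stood at 2336 CPM in B12+Butyrate, 1601 CPM in Butyrate, 2348 CPM in B12 and 2910 CPM in Control over all neutrophils, but within the mature stage it stood at 35883, 32524, 33937 and 36828 CPM in the same libraries.

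The summed monocyte markers in neutrophils were lower in both butyrate libraries than in both others, but by less than Wfdc17. The dendritic cell markers did not split by butyrate. By stage, the monocyte markers were lower in both butyrate libraries in the primary granule, cycling, intermediate and mature stages. In B12+Butyrate, Butyrate, B12 and Control they summed to 83.1, 63.8, 134 and 267 CPM in the primary granule stage. In the cycling stage they summed to 48.6, 48.1, 64.6 and 137 CPM, and in the intermediate stage to 16.9, 25.6, 34.4 and 55.0 CPM. The secondary granule stage did not split, at 21.2 CPM in B12+Butyrate, 66.2 CPM in Butyrate, 45.8 CPM in B12 and 60.9 CPM in Control. The 12 monocyte markers summed to 43.6 CPM in B12+Butyrate, 52.3 CPM in Butyrate, 67.9 CPM in B12 and 135 CPM in Control neutrophils, with none of the 12 at 0, against at least 7723 CPM in monocytes. Within the mature stage they summed to 59.7 CPM in B12+Butyrate, 62.2 CPM in Butyrate, 84.8 CPM in B12 and 109 CPM in Control, with 3, 1, 2 and 2 of the 12 at 0. The 10 conventional dendritic cell markers summed in neutrophils to 39.4 CPM in B12+Butyrate, 61.9 CPM in Butyrate, 41.6 CPM in B12 and 92.8 CPM in Control, and in the mature stage to 13.7, 41.5, 22.2 and 42.3 CPM in these libraries, with 4, 3, 3 and 3 of the 10 at 0. Csf1r, the macrophage colony-stimulating factor receptor that defines monocytes, stood in the mature stage at 41.9 CPM in B12+Butyrate, 29.0 CPM in Butyrate, 47.9 CPM in B12 and 47.1 CPM in Control. The Wfdc17 level of the mature stage was 1710 CPM in B12 and 1559 CPM in Control, against 690 and 729 CPM in monocytes, which include cycling cells. In Butyrate it was 622 against 463 CPM, and in B12+Butyrate it was 426 against 476 CPM. Any part of other cells in the neutrophil difference was not tested beyond these values. In sums over cells, fewer Wfdc17-bearing cells and less Wfdc17 RNA per cell cannot be told apart, so the cells were also counted by their UMIs.

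By cell, both the share of Wfdc17-bearing neutrophils and the UMIs in such cells were lower in the butyrate libraries. In the mature stage 34.6% (30.6 to 38.7) of B12+Butyrate cells, 38.1% (32.4 to 44.1) of Butyrate cells, 68.1% (64.4 to 71.6) of B12 cells and 61.9% (57.9 to 65.8) of Control cells held a Wfdc17 UMI. The median count in those cells was 3 UMIs in B12+Butyrate, 4 in Butyrate, 6.5 in B12 and 6 in Control. Cells with 20 or more Wfdc17 UMIs made up 1.65% of the mature stage in B12+Butyrate (9 cells), 3.96% in Butyrate (11 cells), 10.8% in B12 (72 cells) and 11.7% in Control (70 cells). The mature stage was nearly even in depth, with medians of 4326, 4169, 3973 and 4341 UMIs in B12+Butyrate, Butyrate, B12 and Control. After each cell was thinned to 2000 UMIs, 27.3%, 31.3%, 59.8% and 53.6% of mature cells in these libraries held a Wfdc17 UMI.

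Over all neutrophils 5.86% (5.18 to 6.60) of B12+Butyrate cells, 5.57% (4.76 to 6.47) of Butyrate cells, 13.6% (12.6 to 14.6) of B12 cells and 15.8% (14.7 to 17.0) of Control cells had a Wfdc17 UMI. T cells, which should lack the gene, had shares of 0.565%, 0.329%, 2.92% and 0.277% in the same libraries at median depths of 4642 to 5185 UMIs, against 13270 to 15175 UMIs in neutrophils. Thinned to 2000 UMIs, the neutrophil shares were 3.80% in B12+Butyrate, 3.86% in Butyrate, 9.91% in B12 and 10.5% in Control. B cells had thinned shares of 4.14% to 4.46%, so the share over all neutrophils of the butyrate libraries is not read as expression beyond the mature stage. The UMIs of B cells sat in few cells: the top 1% of B cells held 42.3% of the Wfdc17 UMIs in B12+Butyrate, 61.3% in Butyrate, 61.3% in B12 and 56.1% in Control, and single B cells held up to 103 UMIs. The pooled Wfdc17 level of the T and B gates exceeded that of neutrophils in both butyrate libraries, so after its subtraction their level was 0 and no ratio over all neutrophils is read. Within the mature stage the log2 ratios were then -1.34 for Butyrate over Control and -2.03 for B12+Butyrate over B12. Subtracting the T cell level alone, a setting chosen after seeing the data, left the ratios over all neutrophils at -1.72 and -1.70.

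**Figure D3:**
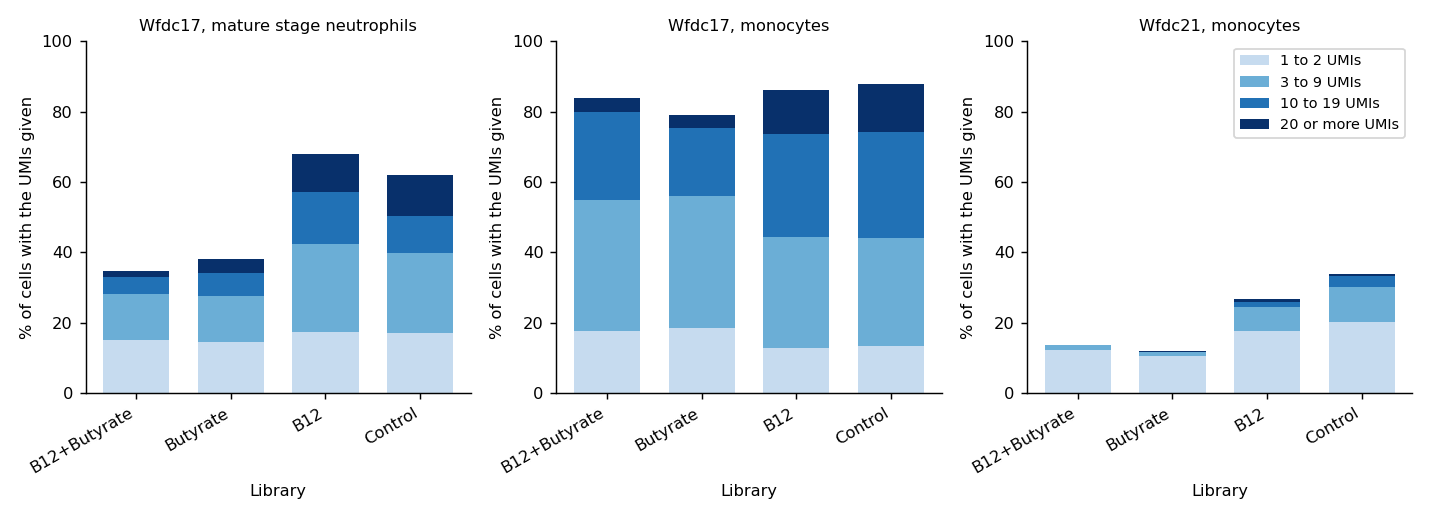
Share of cells, in percent, with 1 to 2, 3 to 9, 10 to 19 and 20 or more UMIs of Wfdc17 in mature stage neutrophils, of Wfdc17 in monocytes and of Wfdc21 in monocytes, as stacked bars by library. The butyrate libraries have shorter bars in the first and the last panel, and 1.65% and 3.96% of mature cells with 20 or more Wfdc17 UMIs against 10.8% and 11.7% in B12 and Control.

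Wfdc17 in monocytes, which held most of its UMIs, was lower in the butyrate libraries by less. The log2 ratio was -0.64 (-0.68 to -0.61) for Butyrate over Control and -0.53 (-0.57 to -0.49) for B12+Butyrate over B12, or 1.57-fold and 1.45-fold lower, under the 2-fold limit used for calls. Non-cycling monocytes outside the nonclassical subset held 760 CPM in B12+Butyrate, 745 CPM in Butyrate, 1224 CPM in B12 and 1155 CPM in Control. Nonclassical monocytes, marked by Ace and Adgre4, held 817 CPM in B12+Butyrate, 661 CPM in Butyrate, 1185 CPM in B12 and 1069 CPM in Control. Cycling monocytes held less, 148 CPM in B12+Butyrate, 176 CPM in Butyrate, 302 CPM in B12 and 378 CPM in Control. All 3 subsets had both butyrate libraries below both others. The cycling subset had log2 ratios of -1.06 for Butyrate over Control, past the 2-fold limit, and -0.98 for B12+Butyrate over B12, just short of it, where 0.107% and 0.0596% of genes were at least 2-fold lower. Monocytes with 20 or more Wfdc17 UMIs made up 4.16% in B12+Butyrate, 3.78% in Butyrate, 12.7% in B12 and 13.7% in Control.

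Wfdc21 did not share the neutrophil difference. Its log2 ratio in neutrophils was 0.07 for Butyrate over Control and 0.08 for B12+Butyrate over B12, and the median Wfdc21 count of positive neutrophils was 77 UMIs in B12+Butyrate, 80 in Butyrate, 69 in B12 and 71 in Control. The sign of these small ratios did not turn under any setting tried. In the mature stage Wfdc21 was 2493 CPM in B12+Butyrate, 2482 CPM in Butyrate, 2915 CPM in B12 and 3124 CPM in Control, log2 ratios of -0.33 for Butyrate over Control and -0.22 for B12+Butyrate over B12. Where the gene was highest the libraries differed little: the secondary granule stage held 6619 CPM in B12+Butyrate, 6712 CPM in Butyrate, 6441 CPM in B12 and 6606 CPM in Control, with the butyrate libraries slightly above, and the intermediate stage held 6148, 6411, 6472 and 6718 CPM in these libraries, with the butyrate libraries slightly below.

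Wfdc21 in monocytes was low and lower still with butyrate. Monocytes held 245 Wfdc21 UMIs in B12+Butyrate, 347 in Butyrate, 1491 in B12 and 2985 in Control, which gives 15.0 CPM (13.2 to 17.0), 18.6 CPM (16.7 to 20.7), 69.8 CPM (66.3 to 73.4) and 102 CPM (98.8 to 106) in the same libraries. The log2 ratio was -1.98 (-2.08 to -1.87) for Butyrate over Control and -1.68 (-1.79 to -1.56) for B12+Butyrate over B12, or 5.51-fold and 4.66-fold lower in CPM. Its ratio was the lowest of 8430 genes in the first comparison and the second lowest of 8409 in the other. At least 2-fold lower in monocytes were 0.107% and 0.0595% of genes in these comparisons, and 0.0484% of 8273 genes in both: Wfdc21, the acute-phase protein gene Saa3, the matrix proteoglycan gene Vcan and the secreted glycoprotein gene Lrg1. As with Wfdc17, this contrast chose the gene, and nothing is read from the rank.

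**Figure D4:**
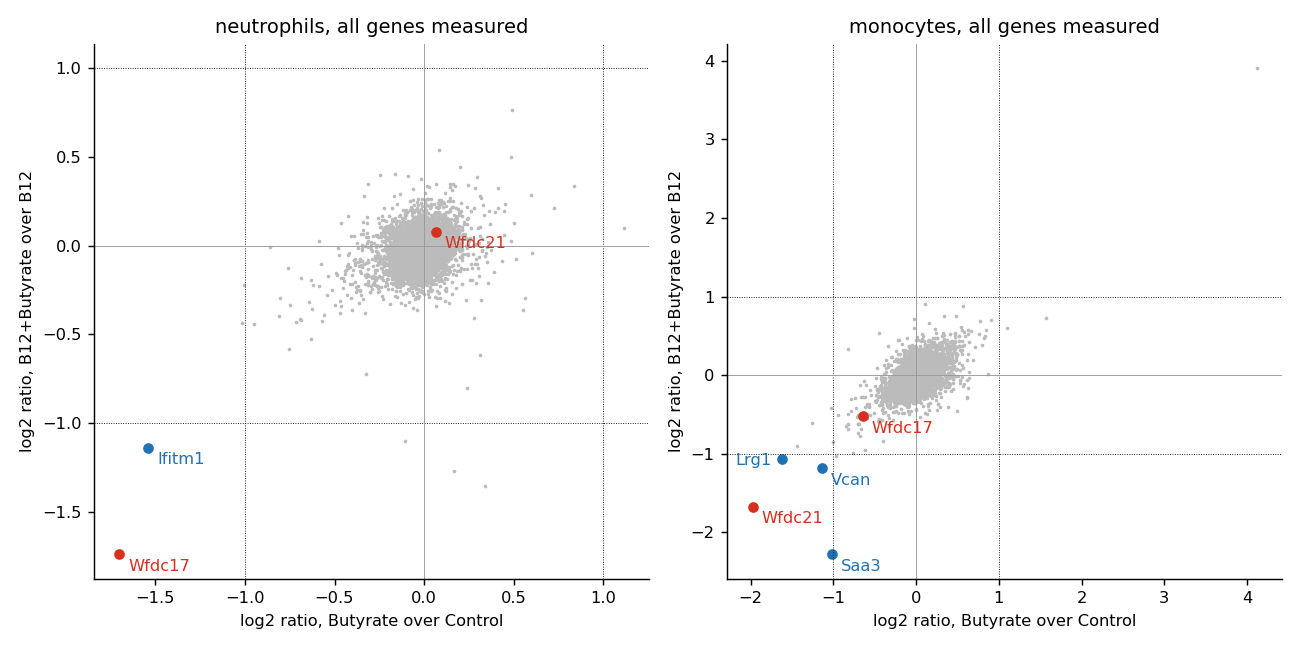
Log2 ratio of CPM plus 10 for B12+Butyrate over B12 against Butyrate over Control, 1 point a gene, in neutrophils (left) and monocytes (right), with dotted lines at 2-fold. Wfdc17 lies at -1.70 and -1.74 in neutrophils, Wfdc21 lies at -1.98 and -1.68 in monocytes, and each gene lies nearer to 0 in the other class.

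Neutrophil transcripts were found in every class, and the neutrophil markers in monocytes were lower in both butyrate libraries, but by less than Wfdc21. The 12 neutrophil markers summed in monocytes to 1786 CPM in B12+Butyrate, 1767 CPM in Butyrate, 2121 CPM in B12 and 2601 CPM in Control, with none at 0, and to 869, 905, 1045 and 1308 CPM in T cells of the same libraries. Wfdc21 in T cells did not split by butyrate, at 16.1, 10.1, 12.6 and 19.1 CPM in these libraries. For every 100 UMIs of the secondary granule genes Ngp, Camp and Ltf there were 5.28 to 5.59 Wfdc21 UMIs in neutrophils as a whole, 4.73 to 9.5 in T cells and 6.32 to 7.84 in B cells. The ratio differed between neutrophil stages, with 4.58 to 9.72 from the primary granule to the intermediate stage and 78.6 in B12+Butyrate, 82.5 in Butyrate, 103 in B12 and 94.3 in Control in the mature stage. B12+Butyrate monocytes held 13.7 (12 to 15.7) and Butyrate monocytes 14.2 (12.6 to 15.9), against 51.2 (48.1 to 54.5) in B12 monocytes and 62.9 (60.0 to 65.8) in Control monocytes. In all 4 libraries the monocytes lay between neutrophils as a whole and the mature stage. Stem and multipotent progenitors of B12+Butyrate had 4.83 (1.91 to 10.2) and those of Butyrate 8.76 (5.40 to 13.6), against 11.7 (8.49 to 15.7) for B12 and 13.2 (9.60 to 17.8) for Control. Granulocyte-monocyte progenitors had 145 to 196. How much of the Wfdc21 in monocytes came from free neutrophil RNA was not tested.

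**Figure D5:**
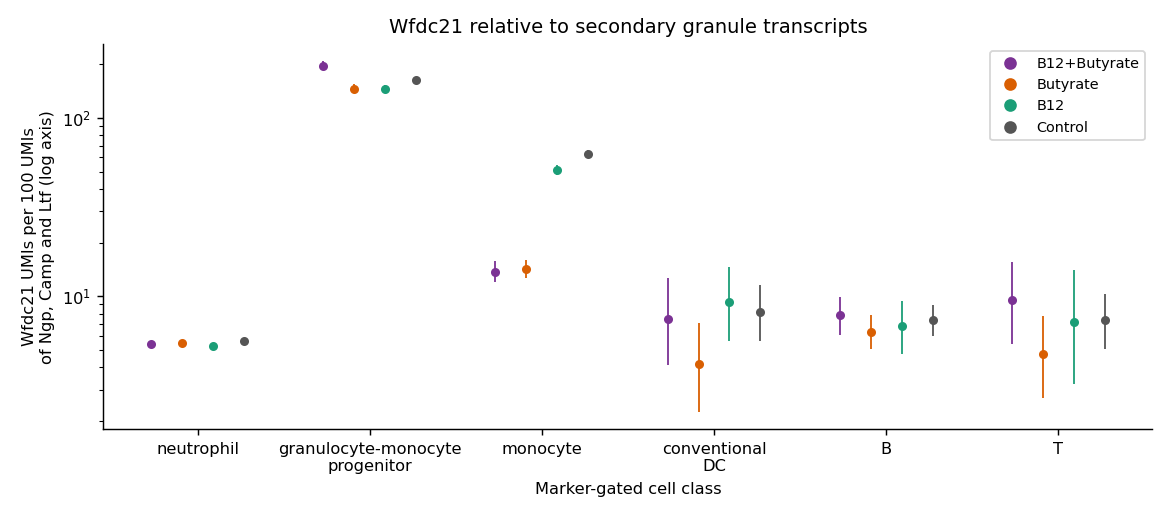
Wfdc21 UMIs for every 100 UMIs of Ngp, Camp and Ltf on a log axis, by cell class, with 1 point a library and bars for the 95% interval. Neutrophils, conventional dendritic cells, B and T cells lie between 4.17 and 9.5, while monocytes lie at 13.7 and 14.2 with butyrate and at 51.2 and 62.9 without.

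By cell, 13.7% (11.8 to 15.8) of B12+Butyrate monocytes, 11.9% (10.3 to 13.6) of Butyrate monocytes, 26.6% (24.5 to 28.9) of B12 monocytes and 33.9% (31.9 to 35.9) of Control monocytes had a Wfdc21 UMI. T cells had shares of 8.47%, 4.93%, 6.57% and 9.42% in the same libraries at lower depth, with medians of 4642 to 5185 UMIs against 11435 to 12468.5 UMIs in monocytes. Thinned to 2000 UMIs, monocytes had 2.54% in B12+Butyrate, 3.30% in Butyrate, 9.48% in B12 and 13.1% in Control, and T cells had 2.99%, 2.14%, 2.36% and 4.14%. The thinned monocyte share of B12+Butyrate did not exceed that of its T cells, although its ratio to the granule transcripts (13.7) was above that of its B cells (7.84, 6.09 to 9.96), so these measures place its Wfdc21 differently against background. The share of Butyrate was above that of its T cells with overlapping intervals, and those of B12 and Control stood clear of theirs. Monocytes with 10 or more Wfdc21 UMIs were 1 and 0 in B12+Butyrate (10 to 19 and 20 or more UMIs), 2 and 2 in Butyrate, 23 and 13 in B12 and 68 and 16 in Control. Subtracting the pooled level of the T and B gates made the log2 ratios -2.65 for Butyrate over Control and -2.36 for B12+Butyrate over B12. Subtracting that of T cells alone made the first -2.34, and in B12+Butyrate it left a level of 0, so the other is not read.

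Cycling and other monocytes both showed the Wfdc21 difference. Cycling monocytes held 15.2 CPM in B12+Butyrate, 21.6 CPM in Butyrate, 69.5 CPM in B12 and 102 CPM in Control, and the non-cycling monocytes outside the nonclassical subset held 16.8, 15.8, 69.1 and 114 CPM in the same libraries. In nonclassical monocytes Wfdc21 was 3.76 CPM in B12+Butyrate, 15.1 CPM in Butyrate, 75.6 CPM in B12 and 29.1 CPM in Control, from 5, 17, 111 and 54 UMIs. Lcn2, the siderophore-binding lipocalin of secondary granules, was also lower with butyrate in monocytes, at 51.8 CPM in B12+Butyrate, 42.1 CPM in Butyrate, 106 CPM in B12 and 131 CPM in Control. Ngp stood at 41.9 CPM in B12+Butyrate, 45.4 CPM in Butyrate, 50.3 CPM in B12 and 59.2 CPM in Control monocytes. Secondary granule genes did not all move this way in monocytes. Cd177 had log2 ratios of 0.31 for Butyrate over Control and 0.42 for B12+Butyrate over B12, and Chil3 had -0.82 and 0.33. The other genes past 2-fold in both comparisons had monocyte levels of 118, 116, 282 and 267 CPM (Vcan), 0.855, 0.536, 42.8 and 11.3 CPM (Saa3) and 0.978, 0.696, 13.1 and 22.8 CPM (Lrg1) in B12+Butyrate, Butyrate, B12 and Control.

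Dendritic cells and progenitors gave less even pictures. In conventional dendritic cells the log2 ratio of Wfdc17 was -0.57 for Butyrate over Control and -1.17 for B12+Butyrate over B12, where 0.365% and 0.55% of genes were at least 2-fold lower and Wfdc17 was among them in the second comparison only. The Cd209a-bearing dendritic cells held most of it, with 648 CPM in B12+Butyrate, 711 CPM in Butyrate, 1285 CPM in B12 and 1008 CPM in Control. Those with Xcr1 or Clec9a, markers of cross-presenting dendritic cells, held 148 CPM in B12+Butyrate, 102 CPM in Butyrate, 338 CPM in B12 and 148 CPM in Control, from 100 to 130 UMIs each. There the B12 library stood apart from the other 3, and butyrate did not split the libraries. Granulocyte-monocyte progenitors held 37, 27, 130 and 254 Wfdc17 UMIs in B12+Butyrate, Butyrate, B12 and Control (4.38, 5.22, 12.8 and 27.8 CPM). Stem and multipotent progenitors held Wfdc17 at 53.7 CPM in B12+Butyrate, 77.8 CPM in Butyrate, 81.6 CPM in B12 and 105 CPM in Control, where Butyrate and B12 lie close together.

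In neutrophils and monocytes as a whole, the libraries with and without B12 differed by less than those with and without butyrate. In neutrophils the log2 ratio of Wfdc17 was -0.15 for B12 over Control and -0.18 for B12+Butyrate over Butyrate, and that of Wfdc21 was -0.02 and -0.01. For Wfdc21 in neutrophils, where all ratios were small, the order depended on the processing. With the same makeup of stages its B12 ratios were larger in size than its butyrate ratios. In monocytes Wfdc17 had ratios of -0.08 for B12 over Control and 0.04 for B12+Butyrate over Butyrate. Wfdc21 in monocytes was lower in both, at -0.50 (-0.57 to -0.42) for B12 over Control and -0.19 (-0.33 to -0.05) for B12+Butyrate over Butyrate, or 1.47-fold and 1.24-fold in CPM. None of these reached 2-fold, as 0% and 0.0289% of neutrophil genes and 0% and 0.0237% of monocyte genes did in the lower direction. The B12 comparisons use the same libraries as the butyrate comparisons.

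Cells were also counted by whether they held both transcripts. A Wfdc21 UMI was held by 14.0% of Wfdc17-bearing monocytes in B12+Butyrate, 12.6% in Butyrate, 28.6% in B12 and 36.4% in Control, and by 11.9%, 9.03%, 14.6% and 15.6% of the other monocytes in these libraries. Cells with more UMIs in all have more of both, and this was not removed. In the mature stage the shares ran the other way, with Wfdc21 in 85.7% of Wfdc17-bearing cells in B12+Butyrate, 89.6% in Butyrate, 93.8% in B12 and 95.4% in Control, against 95%, 92.4%, 98.1% and 96.9% of mature cells without Wfdc17.

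Across the 28 sums of 7 classes in 4 libraries, which share depth and free RNA within a library, the pattern of Wfdc17 was most like that of Bri3 (Pearson r of 0.95), Rbm47 (0.94), Mpeg1 (0.93), Zfp710 (0.92) and Lifr (0.92) among 6332 genes. Mpeg1 encodes the pore-forming perforin-2 of macrophages, Rbm47 an RNA-binding protein and Lifr the receptor of leukaemia inhibitory factor. Wfdc21 was most like Abca13 (0.99), a lipid transporter, S100a8 (0.99), a subunit of neutrophil calprotectin, Slc40a1 (0.98), the iron exporter ferroportin, Aff2 (0.98) and Fcnb (0.98), a ficolin of neutrophils. Wfdc17 and Wfdc21 had an r of -0.23 with each other over the same sums.

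The rest of the WAP family, apart from Slpi, stayed under 10 CPM in neutrophils and monocytes of every library. Of 19 other family genes, Slpi was the one at 10 CPM or more in neutrophils or monocytes. It stood at 348 CPM in B12+Butyrate, 300 CPM in Butyrate, 384 CPM in B12 and 349 CPM in Control neutrophils, log2 ratios of -0.21 for Butyrate over Control and -0.14 for B12+Butyrate over B12. In the mature stage, the stage of Wfdc17, Slpi stood at 2088 CPM in B12+Butyrate, 1946 CPM in Butyrate, 2362 CPM in B12 and 1960 CPM in Control, ratios of -0.01 and -0.18, so the butyrate libraries did not stand apart as they did for Wfdc17. Monocytes held 278 CPM of Slpi in B12+Butyrate, 241 CPM in Butyrate, 318 CPM in B12 and 258 CPM in Control.

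Other protease inhibitors and the proteases themselves stayed within 2-fold over all neutrophils, but not all did so in the mature stage. Of 19 inhibitors of the serpin, stefin, cystatin and TIMP families, 10 were measured for Butyrate over Control and 11 for B12+Butyrate over B12, with none past 2-fold either way, where 0.0142% and 0% of all genes were at least 2-fold higher. Their medians were -0.21 and -0.09, against -0.03 and -0.02 over all genes. Serpinb1a, which inhibits elastase and cathepsin G inside the neutrophil, stood at 892 CPM in B12+Butyrate, 924 CPM in Butyrate, 970 CPM in B12 and 887 CPM in Control. Of 12 neutrophil proteases, 12 and 11 were measured, again with none past 2-fold and medians of -0.22 and -0.02. Among them the primary granule proteases had ratios of -0.40 and -0.36 (Elane, neutrophil elastase), -0.63 and -0.52 (Prtn3, proteinase 3) and -0.75 and -0.58 (Ctsg, cathepsin G) for Butyrate over Control and B12+Butyrate over B12. Of 11 proteases measured in the mature stage, 3 were at least 2-fold lower for Butyrate over Control and 0 of 12 for B12+Butyrate over B12, with ratios of -1.64 and -0.95 (Elane), -1.81 and -0.98 (Prtn3) and -1.12 and -0.78 (Ctsg). Of all genes measured in that stage, 0.211% and 0.36% were at least 2-fold lower in these comparisons. These 3 proteases were also lower for B12 over Control, where neither library had butyrate, at -1.19 (Elane), -1.37 (Prtn3) and -1.10 (Ctsg). For B12+Butyrate over Butyrate they had -0.50, -0.54 and -0.77. Their levels there were low, for Elane 7.04 CPM in B12+Butyrate, 14.1 CPM in Butyrate, 22.9 CPM in B12 and 64.9 CPM in Control. Of 12 inhibitors measured in that stage, 0 were at least 2-fold lower for Butyrate over Control and 1 for B12+Butyrate over B12, the stefin gene Cstdc5 (-0.48 and -1.23). Prtn3 and Ctsg were among the 10 genes with the largest drop in both comparisons, which Wfdc17 and Ifitm1 led. The other 6 were F13a1, S100a4, Fabp5, Sdf2l1, Nme2 and Trps1, none of them past 2-fold in both. Of 12 maturation genes none passed 2-fold, but all 12 lay below 0 for Butyrate over Control (median -0.27) and 8 of 12 for B12+Butyrate over B12 (median -0.05). Of 10 secondary granule genes none passed 2-fold in neutrophils, with 9 of 10 above 0 in each comparison.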

How the data were processed

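The authors deposited 1 filtered matrix of unnormalized UMI counts (genes by barcodes) for each of 4 libraries, which the file headers credit to Cell Ranger 7.1.0 and the submitters' processing notes to the GRCm39 build. Filters on cells before deposit, and whether intronic reads were counted, are not given in the sources used here. The genes, lists and comparisons were chosen with earlier results of these data known, and the marker limits and stages were set after marker distributions were seen.

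Counts were summed per class and library, and scaled to counts per 1000000 UMIs of those cells (CPM). Class limits on summed marker UMIs per 10000 UMIs were 500 for neutrophils, 100 for granulocyte-monocyte progenitors, 20 for monocytes and basophils, 10 for B, T and plasmacytoid dendritic cells, 3 for NK and for stem and multipotent progenitor cells, and 5 for conventional dendritic cells, which also needed 50 of MHC class II genes. Neutrophil stages used, in this order and per 10000 UMIs, primary granule genes at 100 or more, G2/M genes at 3 or more, and limits of 50 for Camp and 20 for Retnlg. Cells past the limits of both conventional dendritic cells and monocytes did not count as monocytes, and those also past the plasmacytoid or B limits did not count as conventional dendritic cells. Neutrophil limits took precedence over granulocyte-monocyte progenitor limits, these over monocyte limits, and T over NK limits. Stem and multipotent progenitors had to pass no other limits. Cells that still passed several class limits were removed, and a caller based on simulated doublets marked 87.6% to 92.9% of those cells. Log2 ratios used a pseudocount of 10 CPM, over genes at 10 CPM or more in either library. A call meant at least 2-fold, and a level for a count of 0 was set at 3 UMIs. With 1 library a group there was no test and no p-value. Genes named for likeness were the 5 with the highest r over sums of 50 or more cells, among genes at 50 CPM or more in at least 1 sum, and genes named for drops were the 10 with the largest smaller drop of the 2 butyrate comparisons. The code was tested on simulated data. Alternatives covered the cell filter, the marker limits, scaling, pseudocount, depth, stage makeup, doublets and background subtraction. Software was matplotlib 3.10.9, scikit-learn 1.9.0, pandas 2.3.3, scipy 1.17.1 and numpy 2.4.6 under Python 3.11.15.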

Additional observations from a re-analysis of the deposited data

Results flagged for a closer look

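In 2 places the B12 difference had opposite signs without and with butyrate. Wfdc17 in mature stage neutrophils had a log2 ratio of 0.13 for B12 over Control (1710 against 1559 CPM) and of -0.54 for B12+Butyrate over Butyrate (426 against 622 CPM). Wfdc21 in nonclassical monocytes had a log2 ratio of 1.13 for B12 over Control (75.6 against 29.1 CPM, from 111 and 54 UMIs) and of -0.86 for B12+Butyrate over Butyrate (3.76 against 15.1 CPM, from 5 and 17 UMIs). With 1 library a group, neither difference between the comparisons was tested.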

How the results depend on the processing

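No paired analysis was possible because each group has 1 library and no result comes from a test. Over 154 alternatives to 16 log2 ratios, none turned the sign of a ratio past 2-fold and 102 stayed within the counting interval. The others are given here, with Butyrate over Control first, then B12+Butyrate over B12, B12 over Control and B12+Butyrate over Butyrate, where each is named. With the pooled level of the T and B gates subtracted, Wfdc17 in neutrophils gave -2.76, -2.70, B12 over Control -0.063 and B12+Butyrate over Butyrate 0, where both butyrate levels were set to 0, so the ratios with them are fixed by the pseudocount, and Wfdc21 in monocytes gave -2.65 and -2.36. With the T gate subtracted, Wfdc17 in neutrophils gave -0.22 for B12 over Control and Wfdc21 in monocytes -2.34 and -2.75, the second with a B12+Butyrate level of 0. With a pseudocount of 1 CPM, Wfdc17 in neutrophils gave -2.04 and -2.14 and Wfdc21 in monocytes -2.40 and -2.15. With the same makeup of stages, Wfdc17 in neutrophils gave -1.20, -1.58, -0.0093 and -0.39, and Wfdc21 0.014, 0.019, -0.039 and -0.034. With marker limits doubled, Wfdc17 gave -1.61 for B12+Butyrate over B12 and -0.27 for B12 over Control in neutrophils, -0.58 for Butyrate over Control in monocytes and -0.38 and -1.33 in conventional dendritic cells, while Wfdc21 gave 0.076, 0.066 and -0.0070 (B12 over Control) in neutrophils and -2.18 and -1.53 in monocytes. With cells thinned to 2000 UMIs, Wfdc17 gave -1.93 for B12+Butyrate over B12 and -0.029 for B12 over Control in neutrophils, -1.84 for B12+Butyrate over B12 in the mature stage, and for Butyrate over Control -0.69 in monocytes and -0.44 in conventional dendritic cells, while Wfdc21 in neutrophils gave 0.031, 0.040, -0.030 and -0.021. With doublets removed, Wfdc17 in neutrophils gave -0.10 for B12 over Control, and Wfdc21 0.034, 0.066 and -0.041 for B12 over Control. With median-of-ratios scaling, Wfdc21 in neutrophils gave 0.11, 0.11, 0.025 and 0.032, so its ratios near 0 for B12 changed sign. A looser cell filter (200 genes, 500 UMIs, 20% mitochondrial) gave -0.69 and a stricter one (1000 genes, 2000 UMIs, 5%) -0.61 for Wfdc17 in monocytes, Butyrate over Control. A Retnlg limit of 120 gave -1.46 and -1.81 for Wfdc17 in the mature stage. Subtracting the T gate, the Retnlg limit of 120 and the ratios outside neutrophils as a whole were chosen after seeing the data. The cause of these shifts was not tested. Depth limits Wfdc21 outside neutrophils and progenitors, Wfdc17 before the mature stage, and every class under 100 cells. The mice behind a library are pooled, so no spread between animals can be given.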
